A study of Homo sapiens with 18 samples.

Results

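Cells of the HCT116 line, which comes from a human colorectal carcinoma, stayed untreated (NT) or received 10 μM camptothecin (CPT) for 5 min, and their DNA was treated with RNase H before immunoprecipitation with the S9.6 antibody (DRIP). The 4 RNase H lists of peaks, 2 biological replicates of NT and 2 of 5 min CPT, hold 70055 of the 430858 peaks in the 12 lists of the study. Both groups are the same line with no genetic change, and all 4 libraries were digested with RNase H, so they differ by label only in the drug and in the replicate. The question was where in genes the signal left after RNase H lies once cells have had CPT for a short time. Peaks of the 4 lists that shared at least 1 bp were merged into 61793 regions, and regions with a peak in both 5 min lists are described apart from those of 1 list.

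An R loop is a stretch of DNA in which a nascent transcript pairs with its template strand and leaves the other DNA strand single. RNase H cuts the RNA of such hybrids, and the digested DRIP therefore serves as the control for signal that does not come from RNA:DNA hybrids, or that the enzyme did not reach. S9.6 binds RNA:DNA hybrids and, more weakly, double-stranded RNA. CPT traps topoisomerase I, the enzyme that removes the supercoils raised by transcription, in a complex with a cut DNA strand. Before the immunoprecipitation DNA was cut with 5 restriction enzymes, Bsr GI and Ssp I besides Xba I, Eco RI and Hind III, so fragments end at their sites.

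In these lists, 463 regions had a peak in both 5 min lists and in neither NT list, and 472 protein-coding genes held one of them. By midpoint 194 lay in introns, 124 outside genes and their flanks, 85 at promoters, 53 at terminators and 7 in exons, among them introns of CDKN1A, BMP4 and ZFP36L1 and an exon of EGR1. Among regions of all 4 lists, the first by rank in both 5 min lists were arrays of a short repeat on chromosomes 16 and 22. RTEL1 and then exons of DICER1 followed. This rank uses the 5 min values themselves. Of the regions of all 4 lists 21 were higher and 15 lower at 5 min in both replicates, with no common direction. This sets each summit against the background of its list, which itself differed between lists.

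The sequences below, in the GRCh37 (hg19) build and on its plus strand, show what lay under these peaks. The first 3 reach 100 bp to each side of the summit of the 5 min replicate 1 peak in regions that no NT list had, with recognition sites of the 5 enzymes in capitals. At CDKN1A (chr6:36644588-36644788) the region starts at 36644616, inside an Ssp I site that begins at 36644613. The windows of BMP4 (chr14:54420734-54420934) and ZFP36L1 (chr14:69257325-69257525) hold no such site and are 62.7 and 49.8% G or C, against 29.9% at CDKN1A.
CDKN1A: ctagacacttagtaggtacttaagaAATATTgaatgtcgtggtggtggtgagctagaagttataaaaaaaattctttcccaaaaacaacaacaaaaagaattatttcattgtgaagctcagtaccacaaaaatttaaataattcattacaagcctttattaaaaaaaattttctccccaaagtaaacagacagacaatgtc
BMP4: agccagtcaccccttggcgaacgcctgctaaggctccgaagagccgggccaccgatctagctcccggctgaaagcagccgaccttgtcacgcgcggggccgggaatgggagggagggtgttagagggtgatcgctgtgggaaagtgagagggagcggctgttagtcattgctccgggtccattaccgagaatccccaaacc
ZFP36L1: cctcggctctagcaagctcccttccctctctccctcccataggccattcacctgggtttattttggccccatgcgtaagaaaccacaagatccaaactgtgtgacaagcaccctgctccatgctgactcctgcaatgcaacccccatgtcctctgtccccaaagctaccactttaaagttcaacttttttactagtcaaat

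The next sequences are from a region outside genes on chromosome 21 (chr21:9551444-9551644), in both 5 min lists and no NT list, and from a region outside protein-coding genes on chromosome 22 (chr22:22639180-22639380) that all 4 lists had. Capitals mark copies of ATGAAATG or ATGAGATG on either strand. On chromosome 21 they fill 141 bases of the window, and on chromosome 22 the array begins inside the window and runs on to its right.
chromosome 21 region: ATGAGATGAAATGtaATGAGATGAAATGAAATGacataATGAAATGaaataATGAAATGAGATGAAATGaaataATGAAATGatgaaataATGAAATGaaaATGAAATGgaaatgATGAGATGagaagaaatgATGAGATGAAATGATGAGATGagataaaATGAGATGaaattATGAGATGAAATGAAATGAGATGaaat
chromosome 22 region: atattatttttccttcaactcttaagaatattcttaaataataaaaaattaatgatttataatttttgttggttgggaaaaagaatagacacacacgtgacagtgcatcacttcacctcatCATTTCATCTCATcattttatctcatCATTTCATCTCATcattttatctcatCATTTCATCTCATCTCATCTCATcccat

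The last 2 sequences are the edges of a peak in DICER1 (chr14:95562132-95562191 and chr14:95563022-95563081), the gene of the RNase that cuts small RNA precursors. Capitals mark the coding exon, and the peak ends where the exon ends on each side.
DICER1 left edge: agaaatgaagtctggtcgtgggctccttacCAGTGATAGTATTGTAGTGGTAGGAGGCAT
DICER1 right edge: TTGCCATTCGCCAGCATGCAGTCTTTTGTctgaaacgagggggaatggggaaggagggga

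Both 5 min lists were longer than the NT list of the same replicate number, and replicate 2 was longer than replicate 1 in both treatments. They held 473 and 15790 peaks in NT replicates 1 and 2, and 3439 and 50353 after 5 min CPT. Within a replicate number this was 7.27 times and 3.19 times as many peaks, but the groups overlapped, since 5 min replicate 1 was shorter than NT replicate 2 (difference of the means 18764.5, exact permutation p = 0.667, where 2 lists against 2 cannot go below 0.333). The undigested DRIP lists changed far less in length, with 30314 and 52967 peaks in NT and 33852 and 56543 after 5 min. The RNase H peaks covered 0.157 and 8.12 Mb in NT and 1.62 and 30.3 Mb at 5 min.

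The lists also differed in the depth at which a peak could be called. From the deposited fold enrichment and −log10 p, the number of fragments at each summit (pileup) could be solved as a whole number for 99.8% or more of the peaks of each list, together with the background expected there from the input. The most common background was 0.545 and 0.929 fragments in NT replicates 1 and 2 and 0.291 and 1.17 at 5 min, and the lowest summit that entered a list was 6, 6, 4 and 6 fragments. A summit is therefore also given as a multiple of the background of its list (summit over background), which is not scaled to the spike-in.

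With 1 floor for the 4 lists, 13.7 times the background, the 5 min lists held 3439 and 5232 peaks and the NT lists 324 and 2242, and the groups no longer overlapped. This floor is the lowest summit of 5 min replicate 1 itself and was chosen after the lists were seen. It left that list whole and cut NT replicate 2 from 15790 and 5 min replicate 2 from 50353 peaks. The separation of the groups therefore cannot show a difference between treatments. Of the regions, 490 then had a peak in both 5 min lists and 101 in both NT lists.

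**Figure D1:**
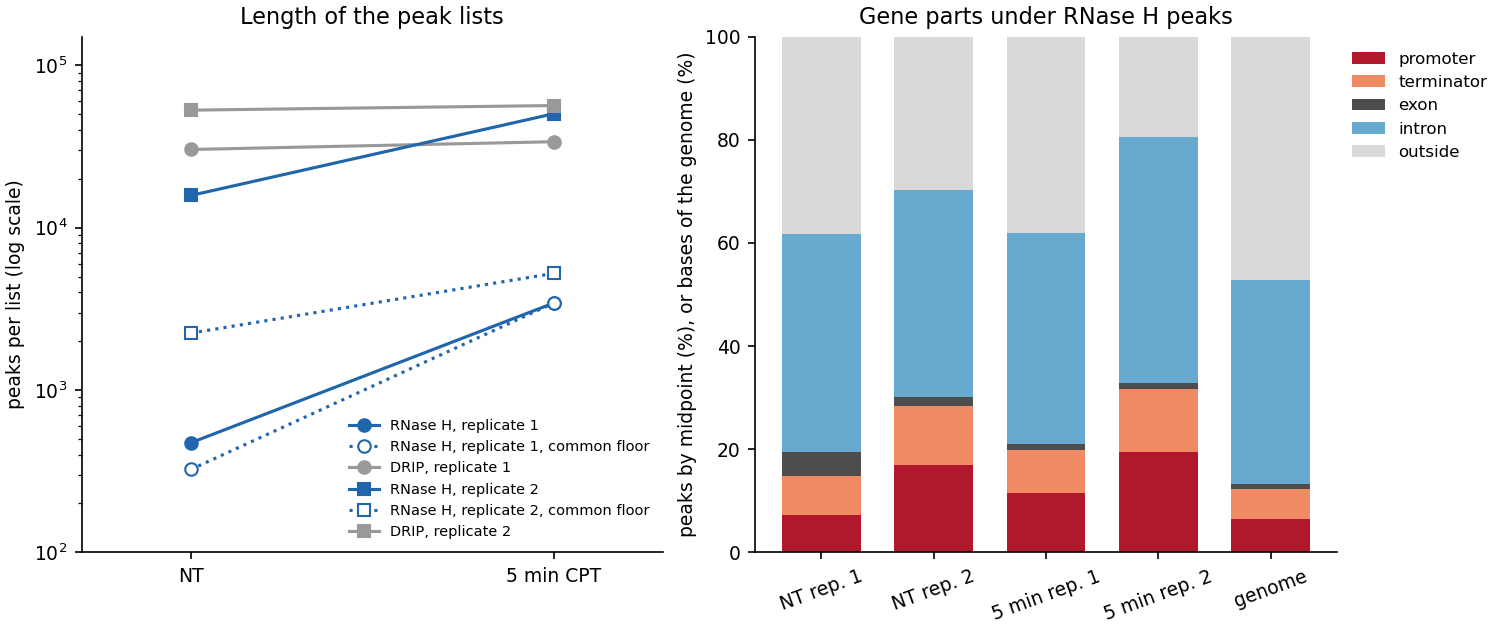
Left, peaks per list on a log scale for NT and 5 min CPT, with RNase H lists in blue, DRIP lists in grey, circles for replicate 1, squares for replicate 2 and open symbols for peaks at or above the common floor; right, share of RNase H peaks (%) whose midpoint lay in each part of genes, beside the share of genome bases. Both RNase H lines run upward from NT to 5 min, from 473 to 3439 and from 15790 to 50353 peaks, while the replicates of 1 treatment differ by more than that.

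Promoters, here the 10 kb before a gene and its 5′ UTR, held 7.19 and 16.9% of the peaks in NT and 11.5 and 19.4% at 5 min, against 6.55% of the genome. The share was higher within each replicate number, by 4.33 and 2.56 percentage points, yet the groups overlapped (exact permutation p = 0.667). Terminators, the 3′ UTR and the 10 kb behind a gene, held 7.61 and 11.6% in NT and 8.40 and 12.3% at 5 min, against 5.78% of the genome.

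Introns held 42.3 and 40.2% of the peaks in NT and 41.1 and 47.7% at 5 min, so the replicates moved in opposite directions. Outside genes and their flanks lay 38.3 and 29.7% in NT and 38.0 and 19.4% at 5 min, against 47.1% of the genome. Neither share separated the groups (exact permutation p = 0.667 for each). The median peak width, 248 and 377 bp in NT and 381 and 385 bp at 5 min, did separate the groups. The p was the smallest that the design allows (exact permutation p = 0.333). At −log10 q of at least 3 the widths overlapped, at 297 and 447 bp in NT and 453 and 441 bp at 5 min. They also overlapped with lists of equal length, at 248 and 909 bp against 564 and 3080 bp (exact permutation p = 0.667 for each setting). The intron share did separate the groups at −log10 q of at least 3 (exact permutation p = 0.333). It was 39.3 and 39.9% in NT and 40.5 and 47.6% at 5 min.

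Peaks of all 4 lists were richer in G and C than the genome, at 49.98 and 52.6% in NT and 48.1 and 51.1% at 5 min, against 40.9%. A DRIP peak of the same treatment and replicate met 35.7 and 45.3% of the NT peaks and 30.3 and 43.3% of the 5 min peaks. Most peaks left after RNase H thus had no called peak in the undigested library of the same cells. At least 10.0% and at most 25.9% of the peak edges of a list fell within 5 bp of a recognition site, against 3.27% of genome bases.

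Of the 61793 regions, 1014 had a peak in both 5 min lists, 2128 came from 5 min replicate 1 alone and 43924 from 5 min replicate 2 alone. Among the 1014, neither NT list had a peak in 463, both NT lists had one in 85, NT replicate 2 alone in 463 and NT replicate 1 alone in 3. In the opposite direction, 15 of the 151 regions with a peak in both NT lists had none in either 5 min list. Both counts depend on the unequal lengths of the lists, and with lists of equal length the 463 became 50. The longest list, 5 min replicate 2, met 34.5% of the peaks of 5 min replicate 1, while replicate 1 met 2.03% of the peaks of replicate 2. NT replicate 2 met 20.2% of the peaks of 5 min replicate 1.

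Higher peaks were found again more often. In 4 bins of rising fold enrichment of 5 min replicate 1, 155 of 861, 255 of 772, 291 of 896 and 484 of 910 peaks were met by replicate 2, or 53.2% in the highest bin. From replicate 2 to replicate 1, 0.876% of the lowest and 5.00% of the highest bin were met.

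Regions of both 5 min lists and no NT list had 18.4% of their midpoints at promoters (95% Wilson interval 15.1 to 22.1%), 11.4% at terminators, 1.51% in exons, 41.9% in introns and 26.8% outside. Here and below an interval covers counting error only, and regions share libraries. For regions of both 5 min lists that an NT list also had, these shares were 16.9, 14.0, 3.09, 37.2 and 28.9%. Regions of 5 min replicate 1 alone lay near the genome's own proportions, with 6.95% at promoters (5.95 to 8.12%), 5.87% at terminators and 43.99% outside genes. Those of 5 min replicate 2 alone had 19.5% at promoters (19.2 to 19.9%), 12.1% at terminators and 18.7% outside.

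**Figure D2:**
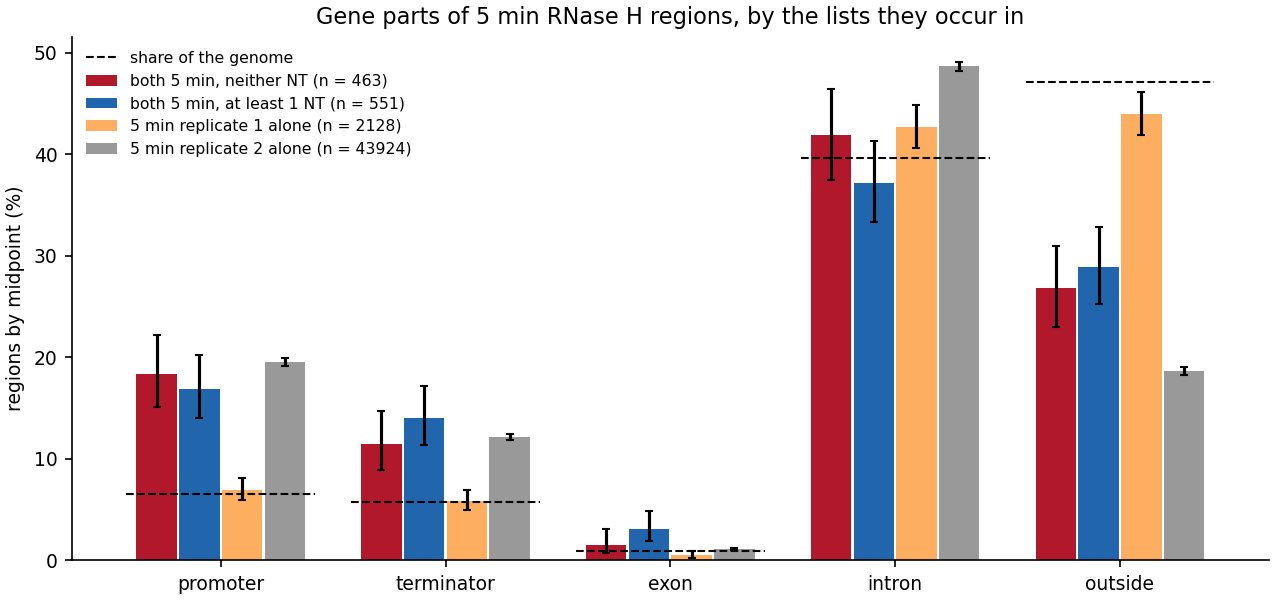
Share of 5 min RNase H regions (%) by the part of the gene at their midpoint, for regions of both 5 min lists without an NT peak (red), of both with an NT peak (blue), of replicate 1 alone (orange) and of replicate 2 alone (grey), with 95% Wilson intervals; dashed lines give the share of genome bases. Promoters held 18.4% of the regions in red and 6.95% of those in orange, where the genome holds 6.55%.

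Merged regions of several lists are wider by construction, with a median of 762 bp without and 1870 bp with an NT peak. The 5 min replicate 1 peaks inside regions of both 5 min lists had a median width of 456 bp, against 352 bp in regions of that list alone. The median G and C content was 48.1% without and 52.4% with an NT peak, and 45.6 and 50.2% in regions of 1 list. A motif of 4 runs of 3 or more G (or C, for the other strand) with loops of 1 to 7 bases, which can fold into a G-quadruplex, stood within 100 bp of the summit of 5.18 and 8.89% of the regions of both lists, of 1.83% of those of 5 min replicate 1 alone, 3.23% of 5 min replicate 2 alone and 5.21% of NT replicate 2 alone, and of 2.10% of genome windows of that length.

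Close to start sites, 40 of the 463 regions (8.64%) had their midpoint within 1 kb, 20 upstream and 20 downstream, against 4.72% of the regions that NT also had, 0.94% of those of replicate 1 alone and 6.21% of those of replicate 2 alone. Chromosome 19, the most gene-dense, held 40 of the 463 regions (8.64%), near the 8.90% of all regions, and 18.5% of the regions of both 5 min lists with an NT peak. Long noncoding RNA genes were overlapped by 90 of the 463 (19.4%), much as by regions with an NT peak (19.8%) and those of 5 min replicate 1 alone (19.3%).

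The undigested lists of the same time met many of these regions. Both 5 min DRIP lists had a peak in 47.7% of the 463 regions and neither had one in 29.2%. Both NT DRIP lists had one in 26.3%, and neither in 49.2%. For 54 regions (11.7%) both 5 min DRIP lists and no NT DRIP list had a peak, so the 5 min signal stood there with and without RNase H. Where NT RNase H also had a peak, both NT DRIP lists met 61.5%. Of the regions of 5 min replicate 1 alone, 86.0% met no 5 min DRIP peak and 88.8% no 60 min RNase H peak.

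After 60 min of CPT, 5.83% of the 463 regions had a peak in both RNase H lists, 64.1% in replicate 2 and 34.1% in neither. Of the 85 regions of all 4 lists, 57.6% had a peak in both 60 min lists. The 60 min lists were also of unequal length, with 5392 and 67188 peaks.

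**Figure D3:**
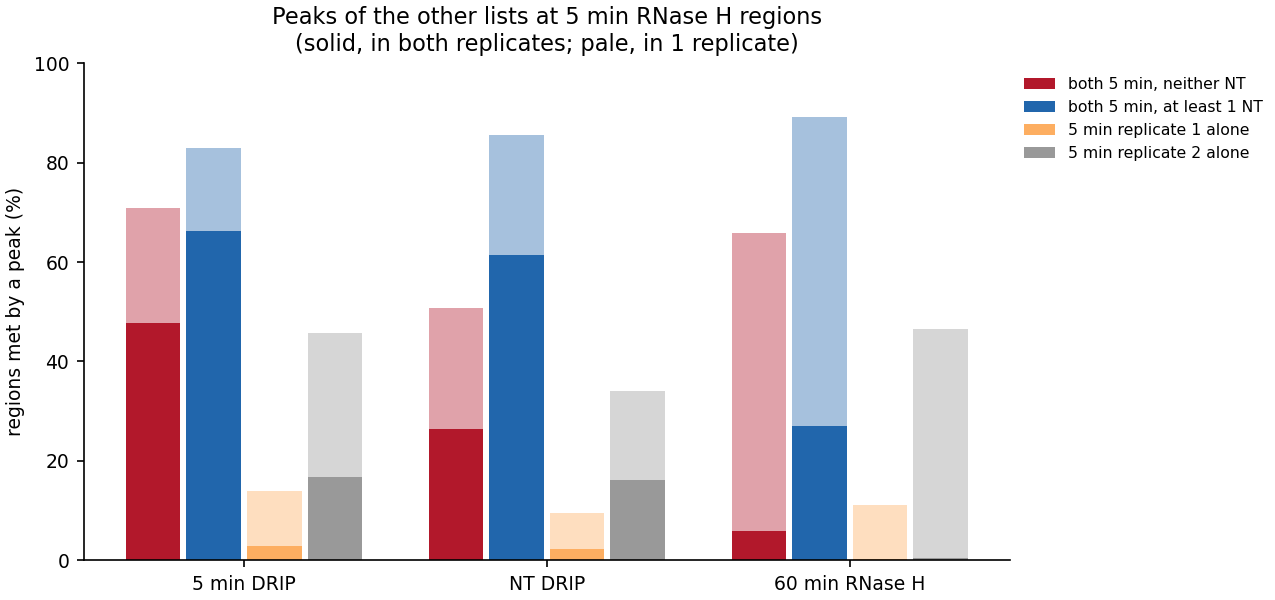
Share of 5 min RNase H regions (%) met by a peak of the 5 min DRIP, NT DRIP and 60 min RNase H lists, solid for both replicates and pale for 1 replicate, with the region classes coloured as red, blue, orange and grey for both lists without NT, both lists with NT, replicate 1 alone and replicate 2 alone. Both 5 min DRIP lists met 47.7% of the red class and 2.91% of the orange class.

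By gene, 472 of 20163 protein-coding genes (2.34%) had a region of both 5 min lists and no NT list in their body or within 10 kb. The region lay at the promoter of 96 genes, in the body of 291 and at the terminator of 93, and a gene may count in more than 1 part. Their median length was 39602.5 bp against 27219 bp for all genes, and 25.2% were longer than 100 kb against 18.2%. A region of both 5 min lists with an NT peak was found in 505 genes (2.50%), of median length 21580 bp. These percentages are the background for the gene lists that follow.

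Ribosomal protein genes, which are short and highly transcribed, had such a region in 10 of 88 cases (11.4%): RPL3, RPL12, RPL14, RPL27, RPL32, RPL34, RPS3, RPS9, RPS15A and RPS21. In the single lists, 0 and 31 of the 88 had an RNase H peak in NT and 21 and 83 at 5 min. As shares these were 0 and 35.2% in NT and 23.9 and 94.3% at 5 min, where all protein-coding genes had 1.37 and 33.2% in NT and 10.7 and 65.4% at 5 min, so NT replicate 2 was near the share of all genes. At the end of RPS15A (chr16:18794835-18802954) fold enrichment over input was 6.97 and 13.4 at 5 min with summits of 8 and 28 fragments, and at RPL14 (chr3:40498402-40501365) it was 5.32 and 9.69 with 6 and 20.

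Of 27 hnRNP genes, which encode proteins that package nascent RNA, 3 had such a region: HNRNPA1, HNRNPA3 and HNRNPF. Fold enrichment was 3.999 and 26.3 at HNRNPA1, 4.51 and 32.3 at HNRNPA3 and 4.52 and 10.6 at HNRNPF. All 3 stood low in 5 min replicate 1, with summits of 5 fragments each, and high in replicate 2, with 56, 69 and 22.

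Immediate early genes, which respond to stimuli within minutes, had 2 of 21, EGR1 and IER2. The EGR1 region (chr5:137798757-137804173) began before this gene of a zinc finger transcription factor and ran into its exons. Neither NT RNase H list had a peak in it, but both undigested NT DRIP lists did. Its summits were 14 and 87 fragments at 5 min, or 48.1 and 74.5 times the background, with fold enrichments of 6.78 and 30.6. At IER2 the summits were 5 and 43 fragments, and IER2 also holds a region of both 5 min lists that NT shared. FOSL1 and NR4A1 hold a shared region and none without NT.

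Among 22 p53 targets only CDKN1A, the gene of the cyclin-dependent kinase inhibitor p21, had a region of both 5 min lists without NT. This region (chr6:36644616-36648777), with its midpoint in an intron 2460 bp behind the start site, overlaps the noncoding RNA gene DINOL, and its summits were 10 and 44 fragments, 34.4 and 37.7 times the background. CDKN1A also holds another region that NT shared.

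Of 40 genes of DNA break response and repair, 3 were called, XRCC1, XRCC4 and XRCC5. XRCC4, a partner of DNA ligase in end joining, was reached through a region at TMEM167A (chr5:82369284-82372254) and XRCC1 through one at PINLYP and IRGQ (chr19:44088102-44088532), both within 10 kb of the named gene. Translation factors had 2 of 55, EIF3A and EIF3E, SR proteins 1 of 14, TRA2A, and heat shock proteins 1 of 38, HSP90AA1. None of 64 replication-dependent histone genes, 8 topoisomerase and TDP genes and 27 RNase H and R-loop factor genes held a region of both 5 min lists, with or without NT. Of all protein-coding genes 4.6% held one, so a count of 0 in sets of 8 and 27 genes says little. A peak of 5 min replicate 2 stood at 8 of these 8 and 25 of these 27 genes. For 5 min replicate 1 this was 0 and 2, and for NT replicate 2 it was 2 and 12. For the histone genes, 11 of 64 (17.2%) had a peak in NT replicate 2 and 44 (68.8%) in 5 min replicate 2, against 33.2 and 65.4% of all genes, and none in either replicate 1 list.

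The highest regions of both 5 min lists without NT, ranked by the lower of their percentiles of fold enrichment in those lists, were as follows. At promoters, GATD3 (chr21:45602466-45603390) had fold enrichments of 12.7 and 8.67 in 5 min replicates 1 and 2, RNF103-CHMP3 7.75 and 6.46, and EEF1AKMT2 with ABRAXAS2, which are transcribed away from each other, 7.46 and 6.12. GRIN2D with GRWD1 (chr19:48946599-48950390) had 6.23 and 12.3. The first in this order was a region before AC104057.1 (chr7:65115595-65117752), with 10.1 and 9.73, which lies in an array of the repeat described below.

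In gene bodies, BMP4 (chr14:54420321-54425570), the gene of a secreted growth factor, had 8.84 and 12.8, and ZFP36L1 (chr14:69255217-69261392), which encodes a protein that promotes decay of AU-rich mRNA, 7.71 and 19.8. ATAD2 had 8.35 and 12.4, CDKN1A 8.32 and 12.4, TDRD12 13.5 and 8.07 and EHBP1 7.75 and 12.5. The BMP4, ATAD2, CDKN1A and ZFP36L1 regions had a DRIP peak in both NT lists, and those of TDRD12 and EHBP1 in neither. The leading terminator regions were at PKP3, a desmosome gene, with 8.16 and 11.99, FEM1A with 7.48 and 9.87, RPS15A and MIER2, with 6.75 and 6.76.

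Summits in these gene regions rested on few fragments in 5 min replicate 1, from 8 to 18, and on 13 to 44 in replicate 2. No gene had more than 3 of the 463 regions. PPP6R2, which encodes a subunit of protein phosphatase 6, had 3, all in introns, with fold enrichments of 4.96 to 5.11 in replicate 1 and 6.92 to 7.44 in replicate 2, and 12 genes had 2, among them ARFGEF2, ARHGAP29 and FAM83B.

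**Figure D4:**
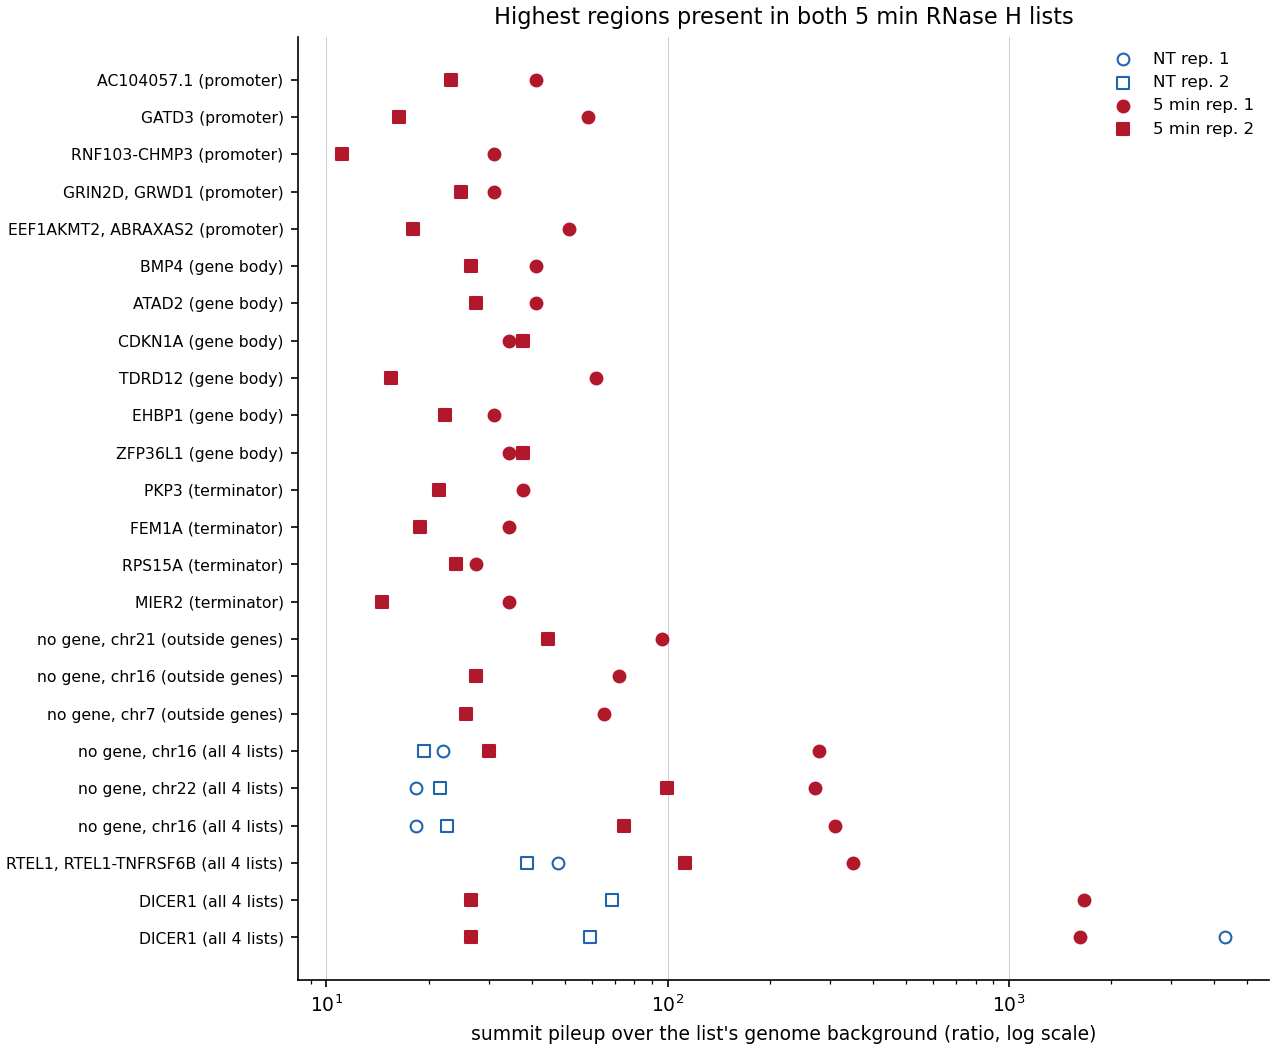
Highest summit of each named region as a multiple of the background of its list (log scale), in NT (open blue) and 5 min CPT (red), circles for replicate 1 and squares for replicate 2; a missing symbol means no peak in that list, except for the first DICER1 row, where the NT replicate 1 pileup could not be solved. In the lower rows the 3 repeat regions and RTEL1 lie higher in both 5 min lists than in both NT lists, and DICER1 is highest in NT replicate 1.

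The regions of all 4 lists allow levels to be set side by side within a replicate number. In replicate 1 the summit over background was higher at 5 min in 68 of 84 such regions, with a median log2 ratio of 0.72, and in replicate 2 in 22 of 85, with a median of -0.33. The background differed, at 0.545 in NT and 0.291 at 5 min in replicate 1, and 0.929 and 1.17 in replicate 2. Equal fragments therefore scored 0.905 in replicate 1 (CYP4F11, 7 and 7) and -0.33 in replicate 2 (a MUC6 region, 48 and 48). The median summit of these regions was 12 fragments in both replicate 1 lists, and 26 in NT and 30 at 5 min in replicate 2. There was no common direction: on this scale 21 were higher and 15 lower at 5 min in both replicates. Fold enrichment over the local input did not always go the same way. At PPP1R12C, among the 21, it was 12.5 and 11.6 in NT and 11.9 and 11.3 at 5 min. At least 1 log2 unit higher in both were 6, and these 6 were chosen for their values and carry no test.

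Among these 6 were 3 genic regions. Over RTEL1 and TNFRSF6B (chr20:62324450-62330011), a DNA helicase that acts at telomeres and a decoy receptor, the summit was 47.7 and 38.8 times the background in NT and 351 and 112 times at 5 min. Around TNFSF9 (chr19:6524570-6533464), a cytokine gene of the TNF family, it was 16.5 and 12.9 times in NT and 55.0 and 53.9 times at 5 min. In GAS6 (chr13:114539542-114547583), the gene of a ligand of TAM receptors, it was 14.7 and 20.5 times in NT and 34.4 and 42.8 times at 5 min. On this scale both 5 min lists lay above both NT lists in each of the 3. In fragments the summits were 26 and 36 in NT and 102 and 131 at 5 min at RTEL1, and 9 and 12 against 16 and 63 at TNFSF9. At GAS6 they were 8 and 19 in NT and 10 and 50 at 5 min, so the groups overlapped there. Fold enrichment over the local input lay higher in both 5 min lists at RTEL1, from 10.5 and 13.6 to 57.0 and 47.8. It did so too at TNFSF9, from 6.47 and 5.56 to 12.2 and 26.7. At GAS6 fold enrichment overlapped, with 5.53 and 10.2 in NT and 7.71 and 18.97 at 5 min.

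The other 3 were arrays of the repeat shown above, which was then sought across the genome. Windows of 1001 bp with 20 or more copies of ATGAAATG or ATGAGATG on either strand fall into 53 loci in GRCh37, a search made after the sequences of the highest regions were seen. NT RNase H lists had a peak in 4 and 7 of the 53 loci and 5 min lists in 13 and 15, with 13 loci in common. The lists also grew, and peaks at these loci were a smaller share of them at 5 min. They made up 1.69 and 0.0507% of the NT lists and 0.523 and 0.0417% of the 5 min lists. Of these 13, 6 had no NT RNase H peak. DRIP lists without RNase H gave 4 and 5 loci in NT and 13 and 12 at 5 min, and 60 min RNase H lists 8 and 13.

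Levels at the 4 arrays that both NT lists had were higher at 5 min in both replicates. At the chromosome 22 array (chr22:22639209-22642401) the summit was 10 and 20 fragments in NT and 79 and 116 at 5 min, or 18.3 and 21.5 times the background in NT and 271 and 99.3 times at 5 min. Over the local input this was a fold enrichment of 6.93 and 7.72 in NT and 59.9 and 54.0 at 5 min, so that the groups did not overlap on either scale. The ratio of 5 min to NT in summit over background was 3.89 log2 units in replicate 1 and 2.21 in replicate 2.

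Along chromosome 16, the array at chr16:32342125-32347007 had summits of 18.3 and 22.6 times the background in NT and 309 and 74.5 times at 5 min, from 10 and 21 fragments in NT and 90 and 87 at 5 min. The array at chr16:32816453-32820129 had 22.02 and 36.6 times in NT and 237 and 78.8 times at 5 min. Its fold enrichment over the local input was 7.30 and 4.14 in NT and 33.7 and 7.47 at 5 min. On that scale 5 min replicate 2 lay just above NT replicate 1. A further array, in a region at chr16:32294476-32299784, had fold enrichments of 8.19 and 9.27 in NT and 63.5 and 16.6 at 5 min. All 3 were higher in both 5 min lists.

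Without an NT peak, the chromosome 21 array (chr21:9550697-9553886) had summits of 28 and 52 fragments at 5 min and fold enrichments of 22.5 and 24.4, and one on chromosome 7 (chr7:64603044-64607653), over the pseudogene INTS4P1, 19 and 30 fragments. Undigested DRIP at the chromosome 22 array stood at 9.57 and 9.33 times the background in NT and 54.9 and 33.0 times at 5 min. Both 5 min levels were thus above both NT levels there with and without RNase H. Reads of such arrays match several places in the genome, how they were handled is not given in the sources used here, and its part in these levels was not tested.

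Short sequence repeated within a window was more common in regions of both 5 min lists than in the genome. Without an NT peak its share was near that of 5 min replicate 1 alone. Repeats scattered over the genome were not sought. Windows of 1001 bp in which under 75% of the 8-mers were distinct made up 0.966% of the genome, 7.13% of the regions of both 5 min lists without NT, 21.1% of those with NT and 47.1% of those of all 4 lists, against 6.30 and 1.12% for regions of replicate 1 or replicate 2 alone. Telomere-like repeats stood in 5 of the 85 regions of all 4 lists and in none of the 463.

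The highest peaks of both replicate 1 lists lay on exons of DICER1. DICER1 held 10 and 10 peaks in NT and 11 and 9 at 5 min, and each touched an exon. Fold enrichment ran from 186 to 849 in NT replicate 1, from 15.3 to 37.9 in NT replicate 2, from 97.2 to 237 in 5 min replicate 1 and from 4.87 to 14.8 in 5 min replicate 2. On the exon at chr14:95569678-95570466 it was 849 and 29.0 in NT and 181 and 14.8 at 5 min, so it was lower at 5 min within each replicate number, while replicate 1 stood above replicate 2 in both treatments.

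Many of these peaks began and ended within 10 bp of exon ends and left the longer introns free, as the DICER1 sequences above show. Of the peaks bounded by exons on both sides there were 13 and 10 in the NT lists and 9 and 8 at 5 min, and only DICER1 and, in NT replicate 1, CBS held more than 1. Undigested DRIP lists of replicate 1 showed the same at DICER1, with fold enrichment of up to 264 in NT replicate 1. Where this DNA came from was not tested. Without DICER1 and CBS the share of exon peaks in NT replicate 1 was 2.83% in place of 4.65%.

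**Figure D5:**
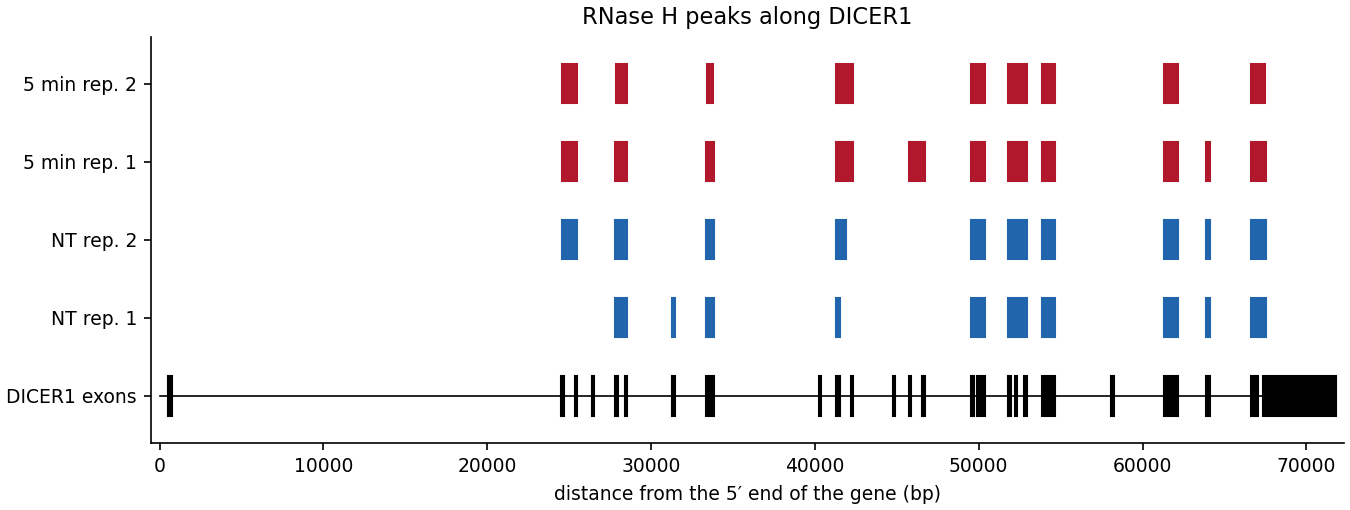
RNase H peaks along DICER1 by distance from the 5′ end of the gene (bp), 5 min CPT in red and NT in blue, with exons as black boxes at the bottom. The peaks, 9 to 11 in each list, sit on exons, and the long first introns carry none.

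Among cell type markers, DRIP peaks lay at 4 and 6 of 8 colon epithelium genes in NT and at 6 and 6 at 5 min. They lay at 3 and 4 (NT) and 2 and 2 (5 min) of 7 markers of leukocytes, fibroblasts and endothelium found in the annotation. Of all protein-coding genes, 53.8 and 64.9% had a DRIP peak in NT and 59.0 and 68.9% at 5 min. With so few markers beside these shares, the counts do not identify the cell type. The lists measure hybrids and not expression.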

How the data were processed

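DRIP-seq of HCT116 cells was analysed from the peak lists of 12 libraries, of which 4 were RNase H libraries of NT and 5 min CPT. Per the study's methods, the authors used Cutadapt for trimming, BWA for alignment to hg19 with a yeast spike-in genome, SAMtools and Picard for removal of duplicates and of blacklisted stretches, and MACS2 for peaks, library by library with the input as control and replicates not pooled. Tool versions and the calling threshold are not given in the sources used here. The deposited fold enrichment is a ratio, summit over local background. Deposited significance is given as −log10 p and −log10 q at the summit, and the deposited score, which follows the −log10 q, was left aside. Counts of reads and library depths were not in the lists, spike-in scaling was not applied to them, and the study's test on counts was not repeated.

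Summit pileups were solved from fold enrichment and the Poisson −log10 p, accepted within 0.005 of the deposited value. Peaks overlapping by at least 1 bp were merged. Parts of genes came from GENCODE release 44 on GRCh37, with flanks of 10 kb, by midpoint, for 20163 protein-coding genes. Per-list values were compared by two-sided exact permutation tests over the 4 lists. Named regions were the first 6 at promoters, 6 in gene bodies, 4 at terminators and 3 outside genes by the lower of the percentiles of fold enrichment in the 5 min lists, the first 6 of all 4 lists, the 4 genes with most regions, and at most 4 members of a gene list. One promoter region and one sequence are not reported here. TNFSF9, GAS6, the other repeat loci, DICER1 edges and CBS were named after their values were seen. The regions, gene lists and rules were chosen with earlier results of these data known. Replicates were biological per the study, and shared numbers did not pair the samples. Scripts were tested on simulated data and used Python 3.11.15, NumPy 2.4.6, pandas 2.3.3, SciPy 1.17.1, pysam 0.24.0 and Matplotlib 3.10.9.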

Additional observations from a re-analysis of the deposited data

How the results depend on the processing

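With 2 lists a treatment of very unequal length, the differences of means depended on single lists. Leaving out each list in turn, the difference between 5 min and NT ran from -4692.5 to 42221.5 for peaks per list, from 6 to 135 bp for median width, from -1.40 to 8.29 points for promoters, from -1.24 to 2.73 for terminators, from -0.191 to 6.41 for introns, from -14.5 to 4.01 outside genes, from -3.17 to -0.143 for G and C and from -10.2 to 2.76 for peaks met by DRIP. Without 5 min replicate 2 the direction turned for peaks (-4692.5), promoters (-0.518), terminators (-1.19), introns (-0.191) and outside (4.01). Without NT replicate 1 it turned for promoters (-1.40) and terminators (-1.24), and for peaks met by DRIP without NT replicate 2 (1.04) or 5 min replicate 1 (2.76). With lists cut to the 473 strongest peaks it turned for introns (-2.54) and peaks met by DRIP (16.9), and peak numbers had no value.

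The number of regions of both 5 min lists and no NT list, 463, was 182 at −log10 q of at least 3, 50 with lists of equal length, 251 above the common floor (chosen after seeing the data), and 466 to 44387 with 1 list left out (2591 without 5 min replicate 2, 926 without NT replicate 2). Genes with such a region numbered 185 in place of 472 at −log10 q of at least 3. By any overlap 25.1% of these regions lay at promoters and 14.7% at terminators, and with flanks of 2 kb 7.13% at promoters, 4.75% at terminators, 54.0% in introns and 31.5% outside. At −log10 q of at least 3, at least 1 of the 60 min RNase H lists met 74.7%, both 5 min DRIP lists 53.3% and both NT DRIP lists 33.5%. With at least 50% of the region covered these were 55.7, 35.2 and 17.5%, and both 60 min lists met 0. The cause of these shifts was not tested, beyond the fewer or narrower peaks that a stricter setting leaves.

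With the replicate number as a block the difference in peaks per list was the same 18764.5 (exact permutation p = 0.5, the smallest possible), and the block changed no other call. The correlation of same-numbered lists over genes was 0.108 for both numbers, identical in every digit kept, so it counts as 1 value and not as 2. With 2 pairs it does not show that the lists are paired. The lists hold no depth, so a region that was not called may lie below what its library could show.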
